A study of Mus musculus with 16 samples.

Results

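The genes described here encode DNA-PK and the machinery that rejoins broken DNA ends: Xrcc6, Xrcc5, Prkdc, Dclre1c, Lig4, Xrcc4, Nhej1 and Polq. They were named for their roles in this machinery, and every probe annotated to one of the 8 symbols was taken whatever its signal, which gave 13 probes of 7 genes among 25697 probes and 16593 named genes on the array. Dclre1c was not analysed here, since no probe of the annotation used carried its symbol. Of the 13 probes, 10 were bright enough to be tested and covered 6 genes. The only Xrcc5 probe, the second Xrcc4 probe and the third Polq probe were not detected above the negative control beads on any array.

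In non-homologous end joining, the Ku70 and Ku80 proteins, products of Xrcc6 and Xrcc5, form a ring that threads onto a broken DNA end and recruits the kinase subunit made from Prkdc. The assembled kinase, DNA-PK, activates the nuclease Artemis (Dclre1c), and DNA ligase IV (Lig4) with its partners XRCC4 and XLF (Xrcc4 and Nhej1) seals the break. DNA polymerase theta (Polq) acts in a separate route, which pairs short repeats at resected ends. B cell precursors depend on the first route to assemble their antigen receptor genes, and Ku and DNA-PK bind the Werner syndrome protein, the product of Wrn.

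Gene expression was measured with Illumina bead arrays in total RNA from mouse B cell lymphomas of 2 genotypes, 4 tumours each, all of the strain the labels call C57B6. Both genotypes carry Eµ-Myc, a transgene in which the immunoglobulin heavy chain enhancer drives Myc in B lineage cells. The tumours called Wrn below are Eµ-Myc Wrn Δhel/Δhel, with an allele of Wrn that lacks part of the helicase region on both copies, and the comparison group is Eµ-Myc alone. Titles also carry a letter, E or L, of unstated meaning: replicates 1 and 3 of Eµ-Myc and 2 and 4 of Wrn are E, and the other 4 tumours are L. Ages are not given in the labels, nor whether each tumour came from its own animal, so the spread behind each p-value is that among these 8 samples and may be technical in part. Between 10607 and 11369 probes were detected per array, and precision is set by the small number of arrays. Of 10 pan-B markers with a probe, 9 were tested and Pax5 was not detected on any array. Signal of the targeted gene was 7.03 to 7.48 on the log2 scale in Wrn tumours and 7.56 to 8.45 in Eµ-Myc tumours (difference of -0.75 ± 0.22 SE, limma adjusted p = 0.973), and the position of its probe relative to the deletion is not known here, so the probe may not check the labels. All signals below are log2 values after background correction with an added offset, which makes differences of dim probes smaller than they were.

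Promoter sequence is shown for Xrcc6 and Polq, whose differences are among the larger ones below, and for Xrcc5, the Ku partner that the arrays did not measure. Windows of 300 bases around annotated starts, from RefSeq on GRCm38.p6, were available for 7 of the 8 genes, all but Prkdc. They were searched on both strands for the Myc E-box CACGTG, the CCAAT box CCAAT and the GC box GGGCGG, and no matches overlapped in the stretches shown. The first stretch is from Xrcc6, measured by 3 probes, and covers the bases between Desi1, which is read from the minus strand, and this Xrcc6 start (chr15:82016259-82016368, plus strand). The second lies just before the start of Polq (chr16:37011636-37011785, plus strand). The third surrounds the only E-box found in any of these windows, which lies in that of Xrcc5 (chr1:72307193-72307258, plus strand). Capitals mark motif matches on either strand.
Xrcc6: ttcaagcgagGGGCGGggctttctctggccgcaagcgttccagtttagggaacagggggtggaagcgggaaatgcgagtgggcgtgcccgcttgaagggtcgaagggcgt
Polq: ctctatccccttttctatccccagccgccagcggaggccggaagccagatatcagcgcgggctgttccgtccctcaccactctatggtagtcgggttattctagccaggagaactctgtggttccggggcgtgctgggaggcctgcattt
Xrcc5: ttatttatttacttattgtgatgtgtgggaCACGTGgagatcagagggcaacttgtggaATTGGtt

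Over all 32851 such windows of the mouse table, 7.15% held the E-box, 37.4% the CCAAT box and 35.7% the GC box. The Xrcc6 window held 3 GC boxes and 1 CCAAT box, that of Dclre1c 1 GC box and 3 CCAAT boxes, those of Xrcc4 and Nhej1 3 and 2 GC boxes, and 1 of the 2 Lig4 windows 2 GC boxes. The Polq window held none of these letter strings. A match is a string of letters, and binding was not measured.

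Xrcc6, which encodes the Ku70 subunit, had a higher mean in Wrn tumours with each of its 3 probes, and the groups overlapped with each. The first probe read 11.88, 11.74, 11.35 and 11.23 in Eµ-Myc tumours 1 to 4, and 12.17, 12.42, 11.98 and 11.74 in Wrn tumours 1 to 4. Wrn tumour 4 therefore lay at the level of Eµ-Myc tumour 2 and under Eµ-Myc tumour 1, and the other Wrn tumours lay above every Eµ-Myc tumour. The means, 11.55 ± 0.31 and 12.08 ± 0.29 (SD, n = 4), gave a difference of 0.53 ± 0.22 (SE), or 1.44-fold, with a 95% interval from 0.053 to 1.00. It did not pass after adjustment over the 11024 tested probes (limma adjusted p = 0.973, unadjusted limma p = 0.0326), and the exact two-sided permutation p was 0.0571, where 0.0286 is the smallest that 4 against 4 tumours allow.

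The other Xrcc6 probes gave differences of like size over all 8 tumours. The second read 8.52, 8.20, 7.97 and 7.67 in Eµ-Myc tumours 1 to 4 and 8.84, 8.94, 8.66 and 8.01 in Wrn tumours 1 to 4, a difference of 0.52 ± 0.25 (SE, limma adjusted p = 0.973). The third ranged from 6.09 to 7.33 in Eµ-Myc and from 6.44 to 7.92 in Wrn tumours, a difference of 0.49 ± 0.34 (SE, limma adjusted p = 0.973). The third depended on single tumours: it was 0.25 without Wrn tumour 2, 0.75 without Wrn tumour 4 and 0.29 with Eµ-Myc tumour 4 left out. Eµ-Myc tumour 4 was the lowest of the 8 tumours with each of these probes, and Wrn tumour 2 the highest. In the deposited lumi values, the linear intensities the authors obtained with the lumi package, the first probe read 3749, 3396, 2588 and 2391 in Eµ-Myc tumours 1 to 4 and 4601, 5478, 4010 and 3401 in Wrn tumours 1 to 4. There the log2 difference was also 0.53.

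For Xrcc5, the Ku80 gene and the partner without which Ku70 is unstable, the single probe read 4.15 to 4.52 in Eµ-Myc and 4.18 to 4.27 in Wrn tumours, not above background in either group. Its lumi values lay between -7.8 and 6.2. These arrays therefore give no measure of Xrcc5, and the Ku heterodimer is seen through 1 of its genes only.

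Prkdc, which encodes the catalytic subunit of DNA-PK, also had a higher mean in Wrn tumours, with both probes. The first probe read 5.61, 5.99, 5.45 and 5.23 in Eµ-Myc tumours 1 to 4 and 6.47, 6.01, 6.27 and 5.70 in Wrn tumours 1 to 4. Wrn tumours 1, 2 and 3 lay above all Eµ-Myc tumours, the second of them by a narrow margin over Eµ-Myc tumour 2, while Wrn tumour 4 lay among the Eµ-Myc values. Means were 5.57 ± 0.32 and 6.11 ± 0.33 (SD, n = 4), and the difference of 0.54 ± 0.23 (SE), or 1.46-fold, had a 95% interval from 0.042 to 1.04. It did not pass (limma adjusted p = 0.973, unadjusted limma p = 0.0363, exact two-sided permutation p = 0.0571). The second probe, undetected in 1 Eµ-Myc tumour, differed by 0.60 ± 0.26 (SE, limma adjusted p = 0.973), where Eµ-Myc tumour 4 read 4.77 and tumours 1 to 3 of that genotype 5.52, 5.97 and 5.48. Wrn tumours ranged from 5.75 to 6.46 with that probe, and the difference was 0.38 without Eµ-Myc tumour 4.

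The size of the Prkdc difference depended on the scale, because both probes were dim. With an offset of 50 it was 0.34 and 0.36 for the probes in order, and in the deposited lumi values 0.76 and 0.92. The lumi values of the first probe were 32.8, 47.6, 27.6 and 21.6 in Eµ-Myc tumours 1 to 4 and 72.7, 48.6, 61.0 and 35.9 in Wrn tumours 1 to 4. The order of the tumours was the same on both scales for that probe.

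**Figure D1:**
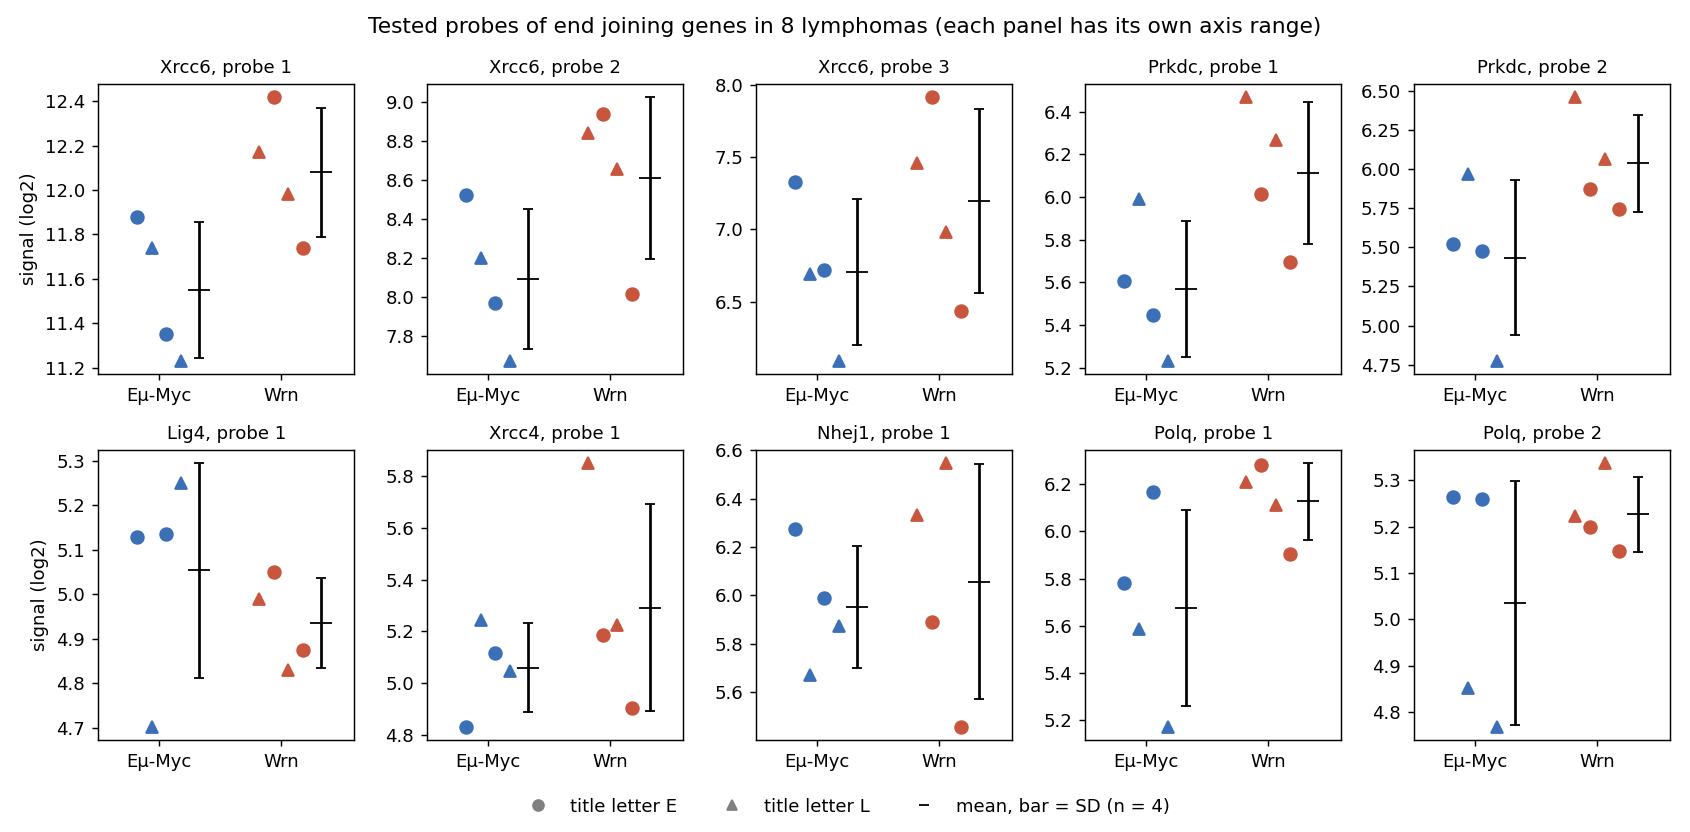
Signal (log2, vertical axis, its own range in each panel) of the 10 tested probes in each tumour, by genotype (horizontal axis), with circles for title letter E and triangles for L, and the mean with SD beside each group of 4. For Xrcc6 and Prkdc the Wrn means lie above the Eµ-Myc means (12.08 against 11.55 and 6.11 against 5.57 for the first probes), and in every panel the groups overlap.

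The ligation complex showed smaller and mixed differences. Lig4, the ligase itself, read 5.13, 4.70, 5.14 and 5.25 in Eµ-Myc tumours 1 to 4 and 4.99, 5.05, 4.83 and 4.87 in Wrn tumours 1 to 4. All Wrn tumours lay inside the Eµ-Myc range, and the probe was detected in 3 of 4 tumours of each genotype. Its difference of -0.12 ± 0.18 (SE, limma adjusted p = 0.986) was the only one below 0 among the tested probes, with a 95% interval from -0.51 to 0.27, and it was -0.24 without Eµ-Myc tumour 2 and -0.053 without Eµ-Myc tumour 4.

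Xrcc4, the scaffold of ligase IV, read 4.83, 5.25, 5.12 and 5.05 in Eµ-Myc tumours 1 to 4 and 5.85, 5.19, 5.22 and 4.90 in Wrn tumours 1 to 4. Wrn tumour 1 stood above all others, and the remaining Wrn tumours lay within the Eµ-Myc range. The probe was undetected in 1 Eµ-Myc tumour. The difference of 0.23 ± 0.22 (SE, limma adjusted p = 0.973) was 0.045 without Wrn tumour 1 and 0.36 without Wrn tumour 4. Nhej1, which encodes XLF, a bridge between the ligase complexes on both ends, read 6.27, 5.67, 5.99 and 5.87 in Eµ-Myc tumours 1 to 4 and 6.33, 5.89, 6.55 and 5.46 in Wrn tumours 1 to 4. Wrn tumours held both the highest and the lowest value, and the difference was 0.11 ± 0.25 (SE, limma adjusted p = 0.987), with a 95% interval from -0.45 to 0.66. It turned to -0.059 without Wrn tumour 3 and ran from 0.011 to 0.31 as each other tumour was left out.

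Polq, the polymerase of the repeat-pairing route, read 5.78, 5.58, 6.17 and 5.17 in Eµ-Myc tumours 1 to 4 with its first probe and 6.21, 6.28, 6.11 and 5.90 in Wrn tumours 1 to 4. The Wrn tumours lay close together, and only Eµ-Myc tumour 3 reached their range. The means, 5.68 ± 0.41 and 6.13 ± 0.16 (SD, n = 4), gave a difference of 0.45 ± 0.22 (SE, limma adjusted p = 0.973, exact two-sided permutation p = 0.0857). The second Polq probe, undetected in 1 Eµ-Myc tumour, differed by 0.19 ± 0.18 (SE, limma adjusted p = 0.973). With it Eµ-Myc tumours 2 and 4 read 4.85 and 4.77 and the other 6 tumours between 5.15 and 5.34. Without Eµ-Myc tumour 4 the differences of the probes, in order, were 0.28 and 0.10. As with Prkdc, the scale set the size for dim probes: with an offset of 50 the differences were 0.28 and 0.093 for Polq, 0.13 for Xrcc4 and -0.060 for Lig4, and in the lumi values 0.65 and 0.39 for Polq, 0.39 for Xrcc4 and -0.20 for Lig4.

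Of the 10 tested probes 0 passed the genotype test (limma), against 4 of all 11024 tested probes, or 0.0363%. At an unadjusted limma p under 0.05, 3 of the 10 had higher means in Wrn tumours, 1 of Xrcc6 and 2 of Prkdc, against 2.06% of all tested probes, and 0 had lower means, against 1.71%. Positive differences were measured for 9 of the 10, against 51.0% of all tested probes, with a median of 0.47 against 0.0068. The groups overlapped for all 10, where 2.21% of all tested probes had groups apart. Probes of a gene read the same RNA, so the 10 probes amount to 6 genes, with a median of 0.34 over the brightest probe of each. Eµ-Myc tumour 4 was the lowest of the 8 tumours with 7 of the 10 probes, those of Xrcc6, Prkdc and Polq, and the highest with that of Lig4. Without this tumour the median over the 10 probes was 0.28 and 0 probes reached an unadjusted limma p under 0.05, against 1.59% of all tested probes. That count was also 0 without Wrn tumour 1 (against 1.30%) or Wrn tumour 2 (2.10%). It was 1 without Eµ-Myc tumour 3 (2.45%) or Wrn tumour 3 (1.47%), 2 without Eµ-Myc tumour 1 (3.39%) and 3 without Eµ-Myc tumour 2 (2.45%). It was 5 when Wrn tumour 4 was left out (2.54%). These shares count probes with higher means in Wrn tumours.

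Markers of cell types were read beside these genes, and their summed signals overlapped between the genotypes. Of the 9 tested pan-B markers, 9 had higher means in Wrn tumours, against 51.0% of all tested probes, with a median of 0.34. At an unadjusted limma p under 0.05 there were 2 of the 9, where 2.06% of all tested probes were higher at that p. The summed linear signal of the 9 ran from 10137 to 13692 in Eµ-Myc and from 12035 to 19833 in Wrn tumours. Eµ-Myc tumour 4 had the lowest pan-B sum. Of 8 tested macrophage markers, 8 had lower means, with a median of -0.51 and sums from 7753 to 11908 against 5386 to 9635. At an unadjusted limma p under 0.05 there were 3 of the 8, where 1.71% of all tested probes were lower at that p. Both tested erythroid markers had lower means (median -0.92, sums from 5194 to 25693 against 1502 to 16038), as had 5 of 6 granulocyte markers (median -0.35, sums from 188 to 2620 against 186 to 660) and 2 of 3 T cell markers (median -0.47, sums from 199 to 761 against 293 to 771). Endothelial and stromal markers had medians of 0.023 and -0.012. Outside the pan-B and macrophage markers, 0 reached an unadjusted limma p under 0.05, against 3.76% of all tested probes in either direction. Of 8 tested markers of dividing cells, 6 had higher means (median 0.083), and Eµ-Myc tumour 4 had the lowest sum, 9929, and Wrn tumour 1 the highest, 15239. The part of these in the differences was not tested, and in bulk tumours fewer cells of a type and less RNA per cell cannot be told apart.

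**Figure D2:**
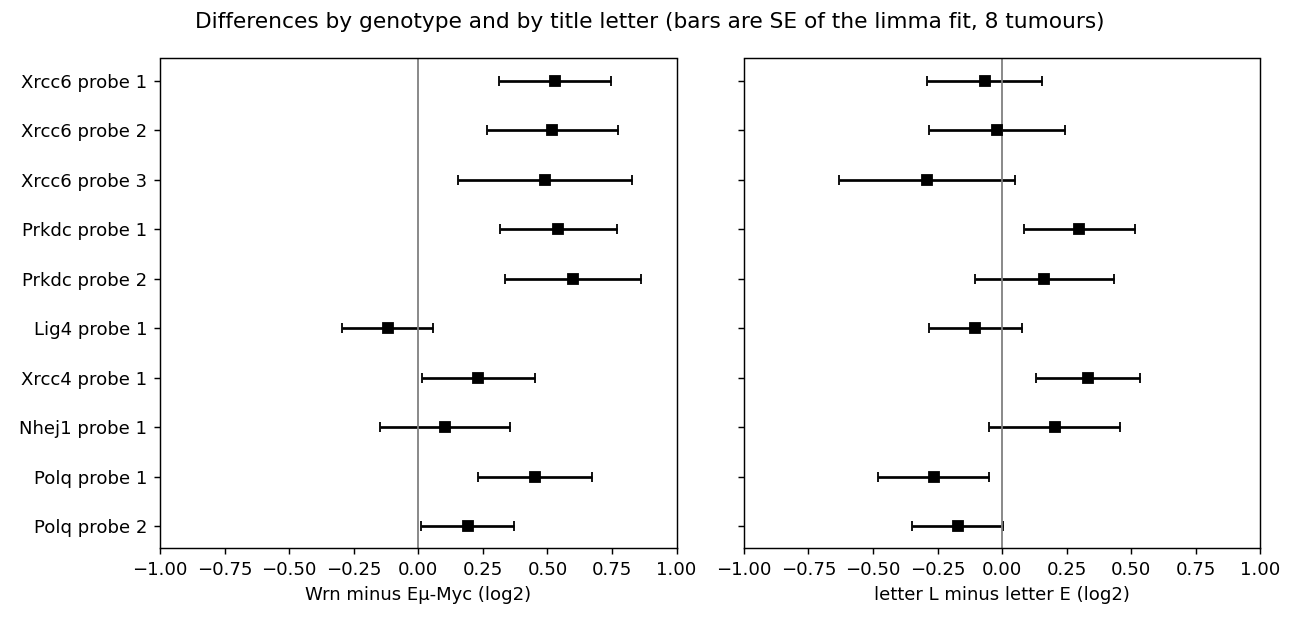
Differences in log2 signal (horizontal axes) for the 10 tested probes, Wrn minus Eµ-Myc on the left and letter L minus letter E on the right, with bars for the SE of the limma fit over 8 tumours. On the left 9 of 10 points lie above 0, from 0.11 to 0.60, and on the right 4 of 10 do.

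The second comparison set the letters against each other with genotype in the model. Of the 10 probes 0 passed (limma), against 0.0181% of all tested probes, and 0 reached an unadjusted limma p under 0.05, against 7.44%. L tumours had higher means with 4 of the 10, against 51.7% of all tested probes. The largest differences in size were 0.33 ± 0.20 for Xrcc4 (SE, n = 4 per letter, limma adjusted p = 0.767), 0.30 ± 0.22 for the first Prkdc probe (limma adjusted p = 0.806), -0.29 ± 0.34 for the third Xrcc6 probe (limma adjusted p = 0.870) and -0.26 ± 0.21 for the first Polq probe (limma adjusted p = 0.818).

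The genotype difference was then taken within each letter, with 2 tumours of each genotype. For the first Xrcc6 probe it was 0.47 in E and 0.59 in L tumours. For the second it was 0.23 in E and 0.81 in L, and for the third 0.15 in E and 0.83 in L. For the first Prkdc probe it was 0.33 in E and 0.76 in L, and for the first Polq probe 0.12 in E and 0.78 in L. The second Polq probe had opposite signs, -0.089 in E and 0.47 in L. Nhej1 also had opposite signs, -0.46 in E and 0.67 in L. Among Eµ-Myc tumours both of its E values lay above both L values, and among Wrn tumours both L values lay above both E values. Put by replicate number, every odd-numbered tumour lay above every even-numbered one. In this design the interaction of genotype and letter is the same contrast as odd against even replicate numbers. For every probe these readings cannot be told apart. The interaction for Nhej1 was 1.13 ± 0.37 (SE) and did not pass over all probes (limma adjusted p = 0.937). Of all tested probes 0% passed the interaction test (0 of 11024), and 5.03% reached an unadjusted limma p under 0.05, against 1 of the 10 probes here.

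Pairs of genes whose proteins act together were compared across the tumours. Xrcc6 and Prkdc, each by its first probe, gave Pearson r = 0.792 over 8 tumours (exact permutation p = 0.0198, adjusted p = 0.119 over the 6 pairs computed) and Spearman rho = 0.833 (exact permutation p = 0.0154, adjusted p = 0.0923). Without Eµ-Myc tumour 4 and Wrn tumour 2, the tumours farthest from the median of Xrcc6, r was 0.835 over 6 tumours, and between deviations from the genotype means it was 0.591. The relation did not pass after adjustment. Each genotype holds 4 tumours, too few for a value within it.

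Other pairs gave weaker relations. Xrcc4 and Nhej1 gave r = 0.377 and rho = 0.310 (exact permutation p = 0.377 and 0.462, adjusted 0.565 and 0.554), and r = 0.571 without the 2 tumours farthest out. Lig4 and Xrcc4 gave r = -0.215 and rho = -0.524 (exact permutation p = 0.633 and 0.197, adjusted 0.633 and 0.295), and r = -0.139 without those 2. Prkdc and its neighbour Mcm4 gave r = 0.233 and rho = 0.190 (exact permutation p = 0.569 and 0.665, adjusted 0.633 and 0.665), which turned to r = -0.710 without Eµ-Myc tumour 4 and Wrn tumour 1, so the positive value rests on those tumours. For Wrn against Xrcc6 or Prkdc the genotypes stand apart in Wrn signal, so no pooled value is given. Between deviations from the genotype means r was 0.331 for Xrcc6 and 0.240 for Prkdc, given without a test. Pairs with Xrcc5 or Dclre1c had no value.

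**Figure D3:**
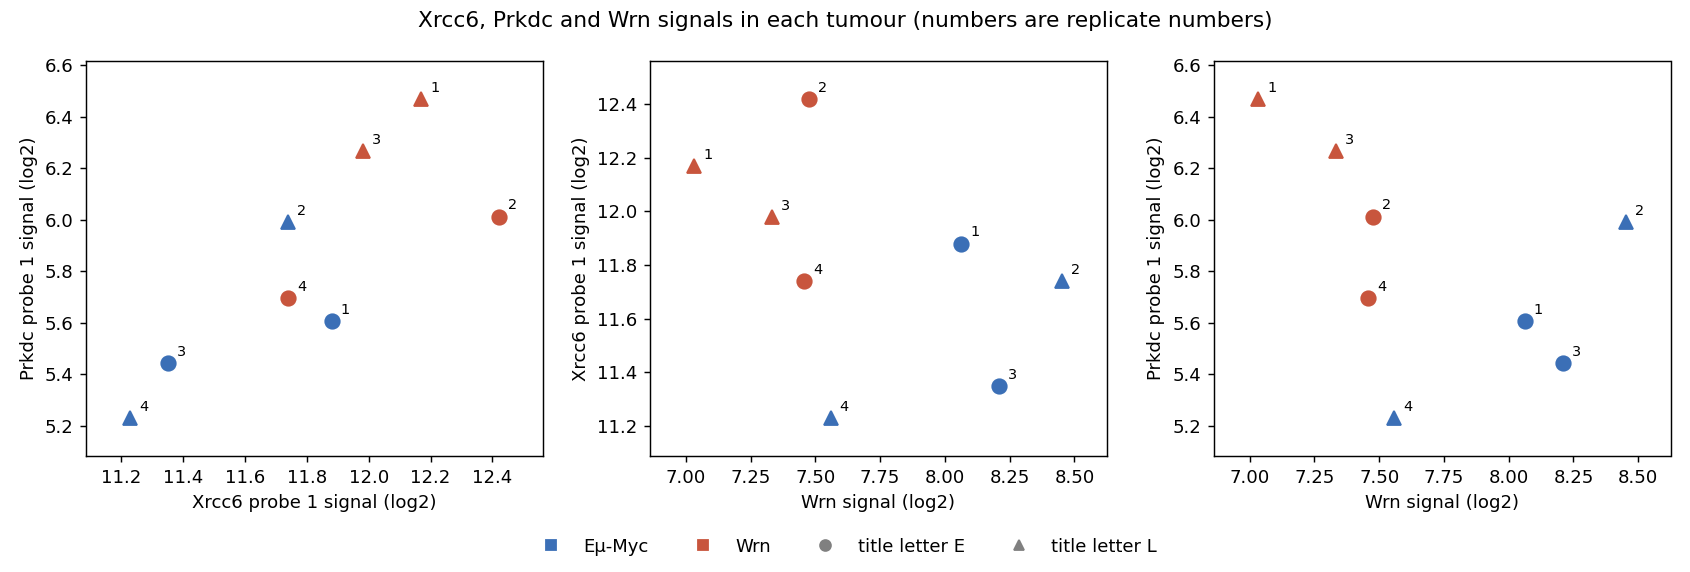
Log2 signal of Xrcc6, Prkdc and Wrn in each tumour, with blue for Eµ-Myc, red for Wrn, circles for letter E, triangles for L and replicate numbers beside the points. Xrcc6 and Prkdc run together in the left panel (r = 0.792), and in the other panels the genotypes stand apart along the Wrn axis (7.03 to 7.48 against 7.56 to 8.45).

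As a description over the 8 tumours, the 3 Xrcc6 probes had Pearson r from 0.893 to 0.954 with each other, the 2 Prkdc probes 0.949 and the 2 Polq probes 0.856. Polq, by its first probe, had r = 0.660 with Xrcc6 and 0.602 with Prkdc. Prkdc had r = 0.745 with Xrcc4 and -0.621 with Lig4, the only gene with negative values against all other first probes except Nhej1, where r was 0.144. These points share arrays and tumour make-up.

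Lists of related genes were set beside these members. By the brightest probe of each, 3917 of all 7665 tested genes had higher means in Wrn tumours. Among end processing and accessory factors 6 of 10 genes were tested, 4 with higher and 2 with lower means in Wrn tumours, and the median was 0.25. Aplf, which docks on Ku, differed by 0.29 ± 0.18 (SE, n = 4 per genotype), Tdp1, which removes proteins trapped on DNA ends, by 0.33 ± 0.24, and Aptx, which repairs failed ligations, by -0.31 ± 0.22. Without Eµ-Myc tumour 4 the median of this list was 0.043. Alternative end joining and nick ligation had 5 of 6 higher and a median of 0.17. Xrcc1, the scaffold of DNA ligase III, differed by 0.64 ± 0.18 (SE, limma adjusted p = 0.973), Parp1, a sensor of breaks, by 0.31 ± 0.20 and the replicative ligase Lig1 by 0.20 ± 0.16.

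End protection and resection had 5 of 7 higher and a median of 0.099. Rad50, of the complex that tethers broken ends, differed by 0.33 ± 0.25 (SE), the helicase Blm, a relative of Wrn, by 0.24 ± 0.19, and Mad2l2, which opposes resection, by -0.19 ± 0.19. The PI3K-like kinases, the family of Prkdc, and their assembly factors had 6 of 8 higher and a median of 0.067. Smg1, the kinase of nonsense-mediated decay, differed by 0.33 ± 0.17, Atm, the kinase of the break response, by 0.38 ± 0.21 and the assembly factor Rpap3 by -0.34 ± 0.20. That median was -0.0023 without Wrn tumour 1.

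Partners of Ku and DNA-PK had 3 of 10 higher and a median of -0.094. Apart from Wrn and Parp1, given above, the lowest p in that list was that of the ubiquitin ligase Rnf8, which differed by -0.16 ± 0.18 (SE). Of V(D)J and class switch recombination 3 of 7 genes were tested, Ung at -0.24 ± 0.28, Hmgb2 at -0.11 ± 0.19 and Apex1 at 0.14 ± 0.23, with a median of -0.11 that was 0.022 without Wrn tumour 4. In all 6 lists 0 genes passed (limma adjusted p over all probes between 0.973 and 0.995). At an unadjusted limma p under 0.05 there were 2, against 3.76% of all tested probes in either direction. They were Xrcc1, 1 of 6 tested genes in its list, and the targeted gene Wrn, 1 of 10 in its list. Each other list had 0. The median over the brightest probe of all 7665 tested genes was 0.0069.

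**Figure D4:**
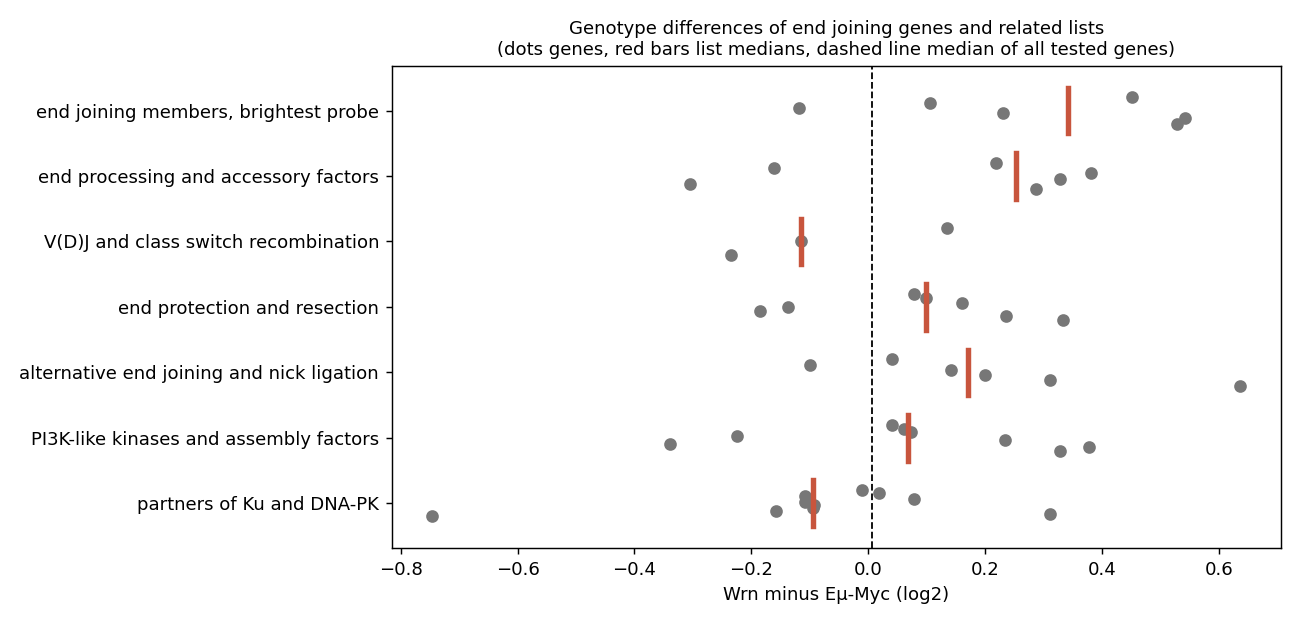
Wrn minus Eµ-Myc differences (log2, horizontal axis) of tested genes by list, with a dot per gene, a red bar at each list median and a dashed line at the median of all tested genes (0.0069). The 6 end joining genes have a median of 0.34 and run from -0.12 to 0.54, and the dots far from 0 in other lists are Xrcc1 at 0.64 and Wrn at -0.75.

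Genes next to these on the chromosome were read from the RefSeq gene order of GRCm38.p6. Mcm4, a subunit of the replicative helicase and the neighbour of Prkdc, differed by 0.041 ± 0.16 (SE), and Mzt2, on the other side, by -0.25 ± 0.20. The annotated span of Xrcc6 begins before the start shown above and takes in Desi1, which differed by 0.12 ± 0.28 and 1700029P11Rik, beside Xrcc6, by 0.023 ± 0.23. Tmem167, next to Xrcc4, differed by 0.29 ± 0.31. Slc23a3, next to Nhej1, differed by 0.063 ± 0.33 and Stxbp5l, next to Polq, by 0.081 ± 0.19. None of these differences passed (limma adjusted p between 0.973 and 0.993), and the neighbours of Xrcc5, Dclre1c and Lig4 had no tested probe. Pearson r of each neighbour with its member over the 8 tumours varied, and is given here without a test. It was 0.840 for Tmem167, 0.542 for Desi1, 0.516 for Stxbp5l and 0.233 for Mcm4. For 1700029P11Rik it was 0.135, for Slc23a3 0.0084 and for Mzt2 -0.29.

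The genes with the most similar pattern over the 8 tumours were named by Pearson r among 7664 other tested genes, without a test. These r are the highest of so many over 8 tumours, so their height comes in part from this choice. For Xrcc6 they were the ribosomal protein gene Rpl22 (0.942), Det1 (0.934) and Tmem177 (0.933). For Prkdc they were Tmem241 (0.980), the autophagy kinase Ulk2 (0.977) and Nabp1 (0.944), which encodes a single-stranded DNA binding protein. Xrcc4 was closest to Vps35 (0.965), Kif2a (0.941) and Phf6 (0.940), Nhej1 to Ppa2 (0.967), Haus4 (0.943) and Acbd6 (0.937), Lig4 to Noc4l (0.990), Sel1l (0.964) and Ap2a2 (0.959), and Polq to AB124611 (0.973), Kyat3 (0.964) and the ribosomal protein gene Rpl4 (0.949).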

How the data were processed

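The series holds 16 records of 8 tumours, each tumour under 2 processings, so each was counted once. Trizol extraction, RNeasy clean-up with DNase I and MessageAmp labelling were used, per the labels' protocols. Per the file headers, the authors' non-normalized table holds average bead intensity and, per probe and array, a detection p-value. The lumi columns hold intensity as deposited, linear and background subtracted. The Illumina GUI columns hold a score as deposited, which was tested on its square root. For both, the settings are not stated here. The tables name probes differently and were joined by the ranks of the 8 arrays (25697 of 25697 one to one, highest ratio of best to second distance 0.143). Symbols came from the platform annotation, updated by gene number to GRCm38.p6.

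Raw signals went through limma's neqc (limma 3.58.1, R 4.3.3, offset 16, quantile, log2). The 11024 probes with a detection p below 0.01 on 4 or more arrays were tested with lmFit and eBayes, two-sided, and Benjamini-Hochberg adjustment over all of them at 0.05. The fit was tested on simulated data. Exact permutation tests ran over the 70 orders of the tumours, or over 40320 orders for correlations. Python 3.11.15 with numpy 2.4.6, pandas 2.3.3, scipy 1.17.1 and matplotlib 3.10.9 was used for the rest.

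The members, lists and tests were chosen with earlier results of these data known. Named besides every member are Wrn, the 3 tested genes of each list with the lowest unadjusted p, tested chromosomal neighbours, and the 3 genes most correlated with each member. Alternatives were the offset, normalization, deposited values, detection filter, array weights, letter in the model, replicate block and leaving out each tumour.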

Additional observations from a re-analysis of the deposited data

How the results depend on the processing

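The genotype differences of the 10 probes kept their sign and stayed short of the threshold (lowest limma adjusted p 0.743) in each alternative that tested them, except Nhej1, which ran from -0.059 to 0.31 as single tumours were left out. The second Prkdc, Lig4, Xrcc4 and second Polq probes were not tested under detection on all 8 arrays. Same-numbered tumours did not deviate together from their genotype means (correlations from -0.214 to -0.004). Each such pair joins an E tumour with an L tumour, and letter was not removed, so these correlations cannot show whether the numbers pair the tumours. With the replicate number as a block the Xrcc6 and Prkdc differences were 0.53 and 0.54 (limma adjusted p = 0.997 for each). Over all probes, 4 passed by genotype, against 2 with array weights, 1 with detection on all 8 arrays, 1 with no filter, 2 with the replicate block, and 1 to 6 with a tumour left out. None was a member. By letter 2 passed, against 1 under median scaling, 0 in the lumi or GUI values, with an offset of 50, with detection on all 8 arrays or with no filter, and 0 to 8 with a tumour left out (820 at an unadjusted p under 0.05). The interaction gave 0, and 1 in the lumi values. Leaving out a tumour turned letter differences of the first and second Xrcc6 probes (-0.22 to 0.058 and -0.26 to 0.15), the second Prkdc probe (-0.019 to 0.46) and Lig4 (-0.20 to 0.016), and the correlation of Prkdc with Mcm4 (-0.357 to 0.551). List medians then ran from 0.043 to 0.31 for end processing, 0.049 to 0.22 for end protection and -0.10 to -0.0063 for partners of Ku. The causes were not tested. Dim probes limit what can be read of Lig4, Xrcc4, Nhej1, Prkdc and Polq, and nothing can be read of Xrcc5.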
